A study of Mus musculus with 6 samples.

Results

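Collagens and the proteins that modify, fold, cut and cross-link them were followed in mouse embryonic fibroblasts lacking Rap1, the telomere protein encoded by Terf2ip, and in wild-type fibroblasts. The set holds 34 genes: 21 collagen chains and 13 enzymes and chaperones. Each gene was represented by the brightest of its probes over all arrays. Probes could be tied to 32 genes through RefSeq accessions; Col12a1 and Col6a3 were matched to none and are not analysed here. Of these, 31 were detected well above background throughout 1 group or both and entered the comparison among 19652 features, and Col14a1 did not.

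There were 3 samples labelled Rap1 knock-out and 3 labelled wild-type, each hybridised as total RNA to its own one-colour (Cy3) Agilent array. The knockout allele was made by flanking exon 3 of Rap1 with loxP sites, so that Cre recombinase removes it. Fibroblasts of both groups were infected with the SV40 large T antigen, which immortalises them, and with Cre, and both grew in medium with 2 micrograms of puromycin per ml. The labels do not say whether the 3 samples of a group came from separate embryos, lines or cultures, and the p-values rest on the spread among these samples alone, which may be technical.

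A collagen molecule is built from 3 chains wound around each other in a triple helix. In the endoplasmic reticulum prolines and lysines of the chains are hydroxylated, which stabilises the helix and prepares it for cross-linking, and chaperones hold the chains until they are folded. After secretion the ends of fibrillar procollagens are cut off, and lysyl oxidases link the assembled molecules. Fibroblasts are the main producers of the fibrillar types I, III and V, while types IV, VIII, XV and XVIII belong to basement membranes and related sheets.

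Levels below are log2 signals relative to the 75th percentile of their array, and differences are knockout minus wild type on that scale, so that 1 is a factor of 2. Terf2ip, the check of the labels, stayed at background on all 3 knockout arrays and was at least 37.7-fold lower in knockout than in wild-type cells (limma adjusted p = 0.00792). Between 61.6% and 67.0% of the probes on an array were well above background. Knockout array 1 and wild-type array 1 shared slide 1, and the other 4 lay on slide 2. All 10 fibroblast markers examined entered the comparison, although Lum was above background on only 2 of 3 knockout arrays. Of the other markers matched, 1 of 7 leukocyte, 1 of 5 muscle and 3 of 8 endothelial markers entered it. Of the fibroblast markers, 4 had a difference above 0 and 6 below. Pdgfra (−2.38), Thy1 (−2.64) and Fn1 (−0.31) were lower on every knockout array, as were 5.88% of all features. None of these 3 passed limma's adjusted p of 0.05. The differences farthest below 0 included Dcn (−3.59) and Lum (−2.19), whose groups overlapped. Knockout array 1 stood apart for several of them, below the other 5 arrays each time. It read −5.47 for Dcn, −9.08 for Lum, −2.22 for Thy1 and −1.48 for Pdgfra. Wild-type array 1, on the same slide, was above the other 5 arrays for each of these genes (5.79, 2.66, 3.79 and 2.92). For Lum, wild-type arrays 2 and 3 read −3.61 and −4.05. The slide 2 differences of these genes, in the same order, were 0.24, 2.58, −0.96 and −1.36. The other fibroblast markers, Vim, Pdgfrb, Fn1, S100a4, Fbln1 and Twist1, were not lowest on knockout array 1. Pdgfrb was highest of all there (4.56), and so, narrowly, was Twist1 (2.166, against 2.164 on knockout array 2). The summed linear signal of the 10 was 187.4 to 336.1 in knockout and 326.5 to 380.9 in wild-type cells. Of 5 epithelial markers above background, 2 lay above 0 and 3 below. Krt18 was higher on every knockout array (1.53), as were 11.3% of all features. Epcam (0.86), Krt8 (−1.74), Krt19 (−0.39) and Krt5 (−0.07) overlapped. Their part in the results below was not tested. Wild-type arrays 2 and 3 were almost alike. Over the 167 probes spotted repeatedly, the SD of their log2 difference was 0.157, within the 0.115 to 0.174 between repeat spots of 1 array, and other pairs of arrays gave 1.01 to 1.66, although the median absolute difference between wild-type arrays 2 and 3, 0.100, was above the 0.048 to 0.065 of repeat spots. Whether they share an RNA was not tested, and results are given with all 6 arrays and with these 2 averaged as 1 sample.

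Among the 31 genes, Col5a3 lay higher on every knockout array, Col8a1 and Col4a5 lay lower on every knockout array, and the other 28 overlapped between the groups. These 3 of 31 (9.68%) compare with 17.2% of all features whose groups did not overlap (11.3% higher and 5.88% lower in knockout), a difference that was not tested. The count depended on the scaling: after quantile normalisation, with or without normexp, and in the authors' value table it was 10 of 31 (32.3%), against 16.9% to 17.4% of all features. None of the 31 passed limma's adjusted p of 0.05, which 0.0102% of all features did, and 3 (Col5a3, Col4a1 and Col8a1) had an unadjusted p under 0.05, against 10.3% of all features. Differences of at least 1 were found for 8 genes: Col5a3, Col7a1 and Col15a1 above 0 (3.88% of all features) and Col8a1, Col4a1, Col1a2, Col4a5 and Col4a2 below 0 (6.26%). All 8 are collagen chains; the 13 enzymes and chaperones stayed between −0.69 and 0.34. The median difference was −0.25 over the 31 genes and 0.07 over all features, with −0.39 for the 18 chains and −0.04 for the 13 others. That median was 0.06 without knockout array 3, between −0.16 and −0.07 without any other single array but wild-type array 1, and −0.12 with wild-type arrays 2 and 3 averaged. The median was also nearer 0 with the mean of a gene's probes (−0.04) and with median scaling (−0.15). Knockout array 3, without which the sign turned, held the lowest knockout value for 19 of the 31 genes.

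**Figure D1:**
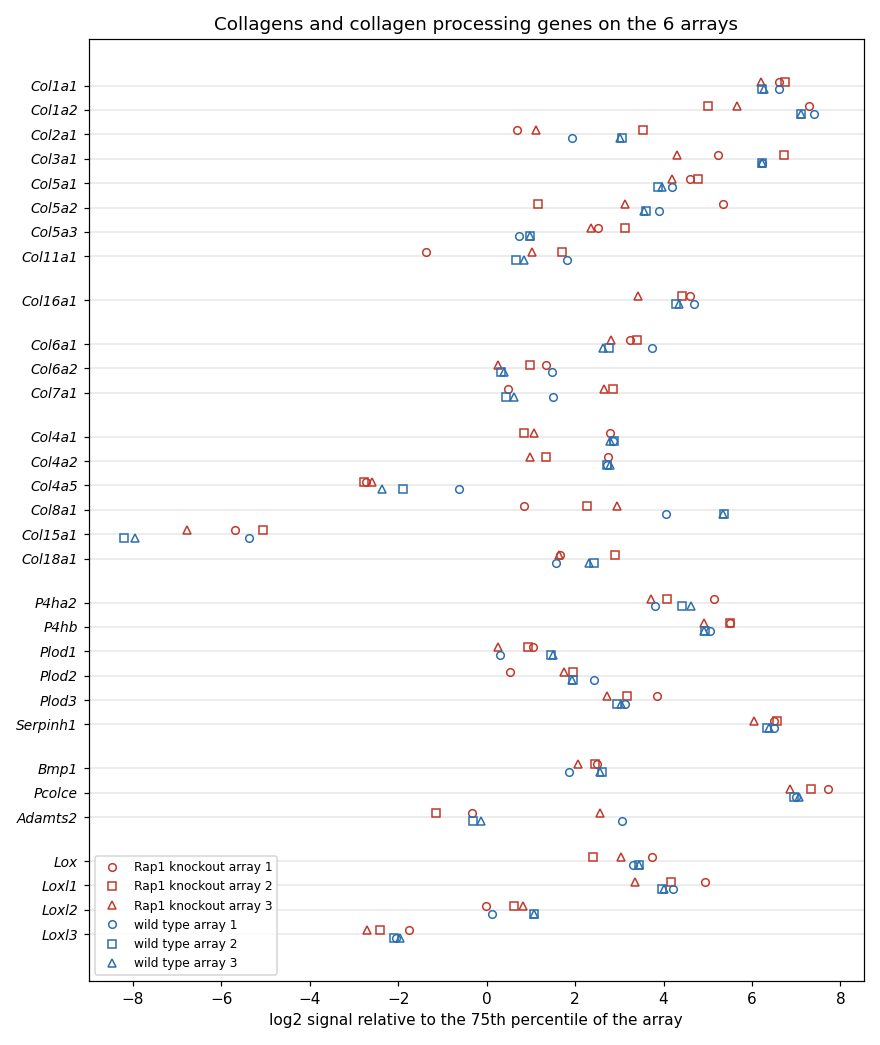
Level of each of the 31 genes (log2 signal relative to the 75th percentile of the array) on 3 Rap1 knockout arrays (red) and 3 wild-type arrays (blue), with a marker shape for each array number and gaps between groups of genes by role. Knockout points are spread more widely than wild-type points for 24 genes, and wild-type arrays 2 and 3 nearly coincide.

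Promoter windows from RefSeq (GRCm38.p6, from 250 bases before to 50 after the gene start) were at hand for 23 of the 34 genes. Short stretches upstream of the start are shown for the 3 genes whose groups did not overlap, and for Col1a2, since it parted from its partner chain Col1a1. Capitals mark the CCAAT box (CCAAT or ATTGG on the strand shown) or the GC box (GGGCGG or CCGCCC); the motifs do not overlap each other in these stretches.
Col5a3, CCAAT box, chr9:20815172-20815201, minus strand: gatctcagccagCCAATcagcgcgtggtgc
Col5a3, GC box, chr9:20815091-20815120, minus strand: ctcgtccgggccCCGCCCggcaagggctct
Col8a1, GC box, chr16:57754743-57754772, minus strand: tgaggaacagctCCGCCCacctgtccataa
Col4a5, CCAAT box, chrX:141475211-141475240, plus strand: taagagaagctgCCAATgaacaaacgagaa
Col4a5, GC box, chrX:141475377-141475406, plus strand: ccagcggggaggGGGCGGtgcagggaagag
Col1a2, CCAAT box, chr6:4505497-4505526, plus strand: aaaagaatggaaCCAATttaagaagccccg
A CCAAT box stood in at least 1 window of 11 of the 23 genes, and a GC box in 18 of the 23. Of all 32851 windows, 37.4% held a CCAAT box and 35.7% a GC box. The 23 genes had 25 windows, so counts by gene and by window are not the same measure. Col8a1, the gene with the largest difference, had a GC box and no CCAAT box in its window. Col4a1 and Col4a2 are read in opposite directions from starts 21 bases apart on chromosome 8, so their windows share 78 bases.

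The fibrillar collagens form the banded fibres of connective tissue. Col5a3 encodes the third chain of type V, the collagen that is built into type I fibres and limits their width. It read 2.52, 3.12 and 2.35 on knockout arrays 1, 2 and 3, against 0.74, 0.98 and 0.98 on wild-type arrays 1, 2 and 3. Every knockout value lay above every wild-type value. The difference was 1.76 (SE 0.27), or 3.40-fold, with limma adjusted p = 0.180, and 1.80 (SE 0.37, limma adjusted p = 0.689) in the averaged comparison. By slide it was 1.78 on slide 1 and 1.76 on slide 2. A second, dimmer probe of Col5a3 was also higher on every knockout array, with a difference of 1.42, though only 1 of 3 wild-type arrays measured it above background.

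The partners of Col5a3 in type V had smaller differences, and differences between the chains were not tested. Col5a1, the chain present in nearly all type V molecules, read 4.61, 4.78 and 4.18 on the knockout arrays, against 4.19, 3.88 and 3.97 on the wild-type arrays, and knockout array 3 lay just inside the wild-type range. Its difference was 0.51 (SE 0.25, limma adjusted p = 0.499), and 0.30 to 0.68 over 19 alternatives. With median scaling, with quantile normalisation (with or without normexp) and in the authors' value table, every knockout array was above every wild-type array for Col5a1. Col5a2, the other common chain, read 5.35, 1.16 and 3.12 on the knockout arrays, against 3.89, 3.60 and 3.56 on the wild-type arrays. It was thus above all wild-type arrays on knockout array 1 and below them on knockout arrays 2 and 3, a knockout range of 4.19 and the widest in the set (difference −0.47, SE 0.96).

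Type I collagen, the bulk of fibrous matrix, is made of chains from Col1a1 and Col1a2. Col1a1 read 6.62, 6.74 and 6.21 on the knockout arrays, against 6.60, 6.23 and 6.27 on the wild-type arrays, a difference of 0.16 (SE 0.25). Col1a2 read 7.28, 4.99 and 5.67 on the knockout arrays, against 7.40, 7.11 and 7.11 on the wild-type arrays. Knockout array 1 lay among the wild-type arrays for Col1a2, and knockout arrays 2 and 3 lay below all of them, by 2.21 and 1.54 from the wild-type mean. The difference of Col1a2 was −1.23 (SE 0.56, limma adjusted p = 0.497), with −0.12 on slide 1 and −1.78 on slide 2. The split between the chains was therefore seen on 2 of 3 knockout arrays.

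Col3a1, which forms the thin fibres of elastic tissues, read 5.24, 6.73 and 4.30 on the knockout arrays, against 6.24, 6.22 and 6.23 on the wild-type arrays. Knockout array 2 was above the wild-type arrays and the other 2 below them, and the difference was −0.81 (SE 0.58). Col2a1 and Col11a1, best known from cartilage, were both measured well above background on all arrays. Col2a1 read 0.68, 3.54 and 1.11 on the knockout arrays, against 1.94, 3.05 and 3.01 on the wild-type arrays (difference −0.89, SE 0.77), and a second, dimmer probe gave 0.85, the opposite sign. Col11a1 read −1.37, 1.70 and 1.02 on the knockout arrays, against 1.82, 0.67 and 0.83 on the wild-type arrays (difference −0.66, SE 0.80). By their brighter probes both genes were lowest on knockout array 1 and, among the knockout arrays, highest on array 2. The dimmer probe of Col2a1 did not share this order. It was highest on knockout array 3 (−1.27) and lowest on wild-type array 2 (−3.32). Of 9 matched cartilage markers 4 were above background. Among these, Comp was higher on every knockout array, as were 11.3% of all features. Comp read −2.16, −2.09 and −3.96 on the knockout arrays, against −4.28, −5.55 and −5.72 on the wild-type arrays. Its difference was 2.45 (limma adjusted p = 0.388). Acan, Sox9 and Runx3 overlapped between the groups. The summed linear signal of the 9 was 1.98 to 4.55 in knockout and 1.73 to 2.95 in wild-type cells, highest on knockout array 2. This sum came largely from 1 gene, Sox9. It read 0.52, 1.81 and 1.32 on the knockout arrays and 1.28, 0.27 and 0.39 on the wild-type arrays. The part of these markers in the values of Col2a1 and Col11a1 was not tested. In RNA from whole cultures, fewer cells of a type and less RNA per cell cannot be told apart.

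**Figure D2:**
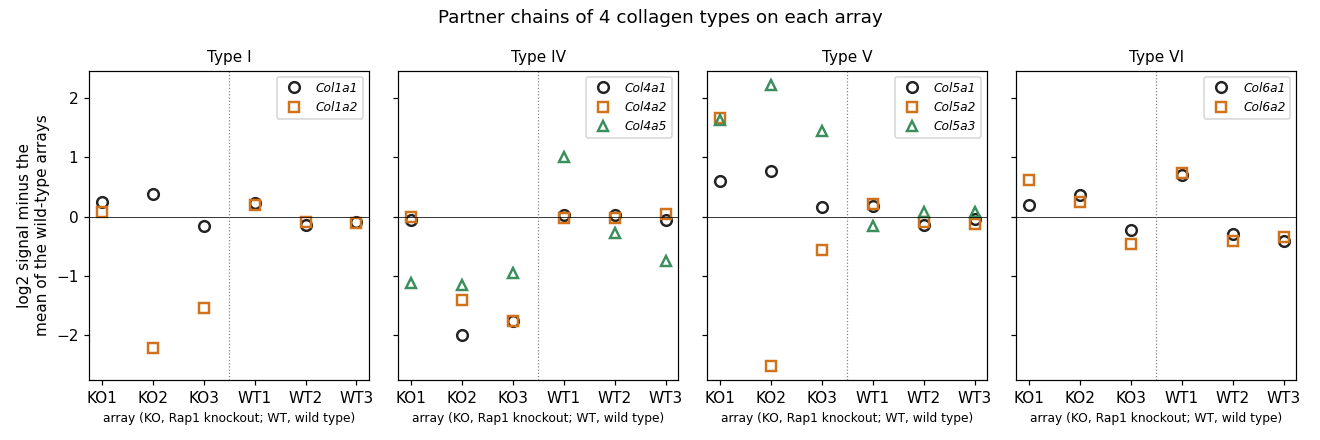
Log2 signal minus the gene's mean over the wild-type arrays, for chains of collagen types I, IV, V and VI on each Rap1 knockout (KO) and wild-type (WT) array. Col1a2, Col4a1 and Col4a2 lie well below 0 on knockout arrays 2 and 3 and near 0 on knockout array 1, while Col1a1 stays between −0.16 and 0.38 on all knockout arrays.

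Basement membrane and network collagens form sheets rather than fibres, and this was the group with the lowest median (−1.06 over 6 genes). Col8a1 encodes a chain of type VIII, a short network collagen of vessel walls and of Descemet's membrane in the cornea. It read 0.85, 2.27 and 2.94 on the knockout arrays, against 4.06, 5.36 and 5.34 on the wild-type arrays. All knockout arrays were below all wild-type arrays, and no other gene of the set differed as much. The difference was −2.90 (SE 0.61, a factor of 7.46, limma adjusted p = 0.313), and −2.69 (SE 0.71, limma adjusted p = 0.936) in the averaged comparison. By slide it was −3.22 on slide 1 and −2.74 on slide 2. A second probe of Col8a1 read −4.11, −1.73 and −0.77 on the knockout arrays, against 0.15, 1.42 and 1.65 on the wild-type arrays, again with no overlap and a difference of −3.27.

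Col4a5, a chain of the type IV network of kidney and other specialised basement membranes, read −2.74, −2.79 and −2.58 on the knockout arrays, against −0.62, −1.90 and −2.37 on the wild-type arrays. The knockout arrays were the most uniform of all 31 genes, with a range of 0.20, and wild-type array 3 stood only 0.21 above the nearest of them. Its difference was −1.08 (SE 0.45, limma adjusted p = 0.486), with −2.12 on slide 1 and −0.55 on slide 2, and −1.33 (SE 0.49) with wild-type arrays 2 and 3 averaged. The size of this difference thus came largely from wild-type array 1.

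Col4a1 and Col4a2 encode the chains of the common type IV network. Col4a1 read 2.78, 0.84 and 1.08 on the knockout arrays, against 2.86, 2.87 and 2.78 on the wild-type arrays. Col4a2 read 2.73, 1.34 and 0.97 on the knockout arrays, against 2.72, 2.71 and 2.78 on the wild-type arrays. The 2 genes had like profiles: both were within 0.06 of the wild-type mean on knockout array 1 and between 1.40 and 2.00 below it on knockout arrays 2 and 3. The differences were −1.27 for Col4a1 (SE 0.51, limma adjusted p = 0.486) and −1.05 for Col4a2 (SE 0.46, limma adjusted p = 0.492), and second probes gave −1.12 and −1.07. On slide 1 they were −0.08 and 0.02, and on slide 2 −1.87 and −1.59. After quantile normalisation, with or without normexp, and in the authors' value table, every knockout array was below every wild-type array for both genes. Col1a2, on chromosome 6, had the same order of knockout arrays as Col4a1, with array 1 near the wild-type arrays and array 2 lowest.

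Of the multiplexins, whose C-terminal fragments include endostatin, Col18a1 showed little difference (−0.03, SE 0.43). Col15a1 was near background: it read −5.70, −5.05 and −6.77 on the knockout arrays, all above background, against −5.37, −8.21 and −7.97 on the wild-type arrays, of which only array 1 was. Its difference was 1.34 (SE 0.83), and −0.33 on slide 1.

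**Figure D3:**
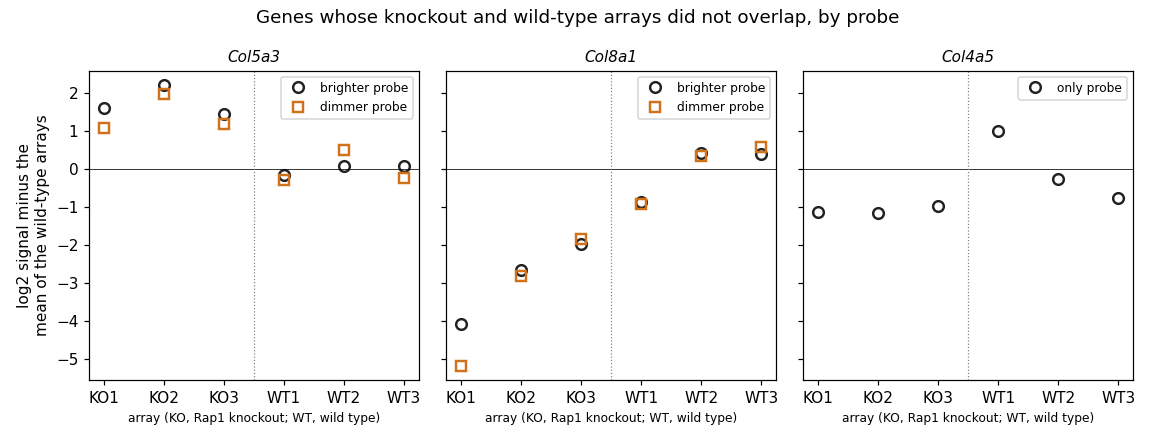
Log2 signal minus the probe's mean over the wild-type arrays, for every probe of the 3 genes whose knockout (KO) and wild-type (WT) arrays did not overlap. Both probes of Col5a3 are above 1 on every knockout array, both probes of Col8a1 are below −1.8 there, and the only probe of Col4a5 sits about 1 below 0 on the knockout arrays, with wild-type array 3 not far above.

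The remaining chains did not separate the groups. Col7a1, the chain of the anchoring fibrils that fix epidermis to dermis, read 0.49, 2.85 and 2.64 on the knockout arrays, against 1.49, 0.45 and 0.62 on the wild-type arrays. It was higher than every wild-type array on knockout arrays 2 and 3 and close to wild-type array 2 on knockout array 1. The difference was 1.14 (SE 0.66, limma adjusted p = 0.522), with 2.22 on slide 2 and the opposite sign on slide 1. Col6a1 and Col6a2, chains of the beaded filaments of type VI, differed by 0.11 (SE 0.36) and 0.14 (SE 0.43) and were both highest on wild-type array 1. Col6a1 read 3.25, 3.41 and 2.81 on the knockout arrays, against 3.75, 2.76 and 2.63 on the wild-type arrays, so all knockout arrays lay inside the wild-type range. Col16a1, which sits on the surface of fibres, differed by −0.30 (SE 0.36). Col14a1, another surface chain, read −7.09, −2.34 and −4.37 on the knockout arrays, against 1.47, −7.07 and −8.29 on the wild-type arrays, and was above background on knockout arrays 2 and 3 and on wild-type array 1. Its values ranged more widely over the 6 arrays than those of the 31 genes in the comparison, and each group held both high and low arrays.

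Enzymes and chaperones of the endoplasmic reticulum showed small differences. Serpinh1 (Hsp47), the collagen-specific chaperone, read 6.49, 6.55 and 6.05 on the knockout arrays, against 6.49, 6.34 and 6.39 on the wild-type arrays, a difference of −0.04 (SE 0.24). P4hb, the protein disulfide isomerase that is also the constant subunit of prolyl 4-hydroxylase, read 5.51, 5.50 and 4.91 on the knockout arrays, against 5.04, 4.93 and 4.92 on the wild-type arrays (difference 0.34, SE 0.25). It was above all wild-type arrays on knockout arrays 1 and 2 and just below them on knockout array 3. P4ha2, one of the catalytic subunits, read 5.15, 4.07 and 3.71 on the knockout arrays, against 3.80, 4.42 and 4.62 on the wild-type arrays (difference 0.03, SE 0.43). Its level was highest of all on knockout array 1 and lowest of all on knockout array 3.

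Among the lysyl hydroxylases, Plod2, which acts on the telopeptides and so steers the type of cross-link, had the lowest difference of the enzymes. It read 0.53, 1.96 and 1.75 on the knockout arrays, against 2.42, 1.96 and 1.93 on the wild-type arrays, −0.69 (SE 0.41, limma adjusted p = 0.526). Knockout array 1 stood apart from the other 5. Plod1 and Plod3, the other members of the family, differed by −0.34 (SE 0.41) and 0.21 (SE 0.32). P4ha2, Plod2 and Lox are known as targets of hypoxia-inducible factors. All 11 other targets measured had a difference below 0 (median −1.12), and none passed limma's adjusted p of 0.05. Of these, 1 was lower without overlap, Car9 (−1.23), as were 5.88% of all features. Their summed linear signal was 121.5, 231.9 and 98.1 on the knockout arrays and 108.2, 219.1 and 238.9 on the wild-type arrays, so the sum overlapped between the groups. Pgk1, with a difference of −0.09, was the brightest of the 11 on every array. The median of the 11 relative to each gene's mean was −0.88, 0.38 and −0.72 on the knockout arrays. It was −0.52, 0.72 and 0.80 on the wild-type arrays, so only the near-alike wild-type arrays 2 and 3 lay above all knockout arrays. The part of these targets in the values of P4ha2, Plod2 and Lox was not tested.

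Removal of the procollagen ends and cross-linking also showed no difference beyond the spread. Bmp1, which cuts the C-propeptide, differed by −0.01 (SE 0.29). Pcolce, its enhancer, read 7.726, 7.342 and 6.861 on the knockout arrays, against 7.001, 6.957 and 7.067 on the wild-type arrays (difference 0.30, SE 0.28), with only knockout array 3 below the wild-type arrays. Adamts2, which cuts the N-propeptide, read −0.34, −1.15 and 2.57 on the knockout arrays, against 3.06, −0.32 and −0.14 on the wild-type arrays. Each group held 1 array near 3 and 2 near or below 0, and a dimmer probe showed the same split (difference −0.51, SE 1.23). Lox, the founding lysyl oxidase, read 3.75, 2.40 and 3.03 on the knockout arrays, against 3.31, 3.45 and 3.45 on the wild-type arrays, a difference of −0.34 (SE 0.36). Only knockout array 1 lay above the wild-type arrays. Its relative Loxl1 read 4.94, 4.16 and 3.36 on the knockout arrays, against 4.21, 3.97 and 4.02 on the wild-type arrays (difference 0.09, SE 0.41), and Loxl2 and Loxl3 differed by −0.28 (SE 0.37) and −0.25 (SE 0.30).

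**Figure D4:**
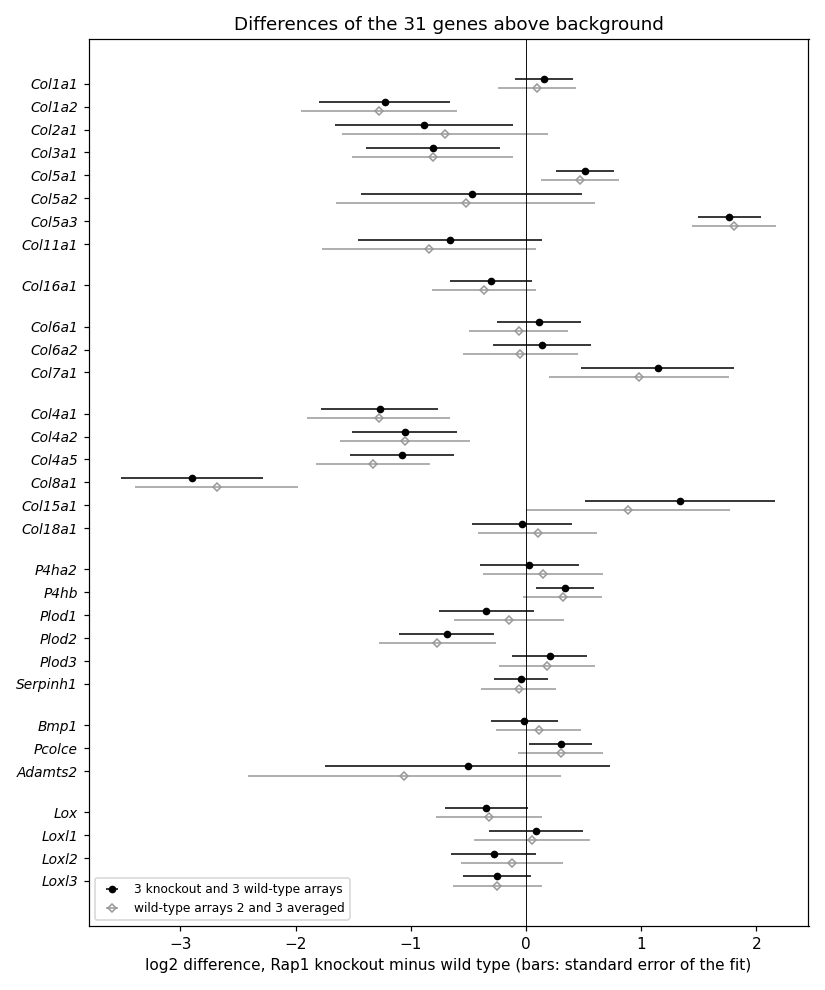
Log2 difference, Rap1 knockout minus wild type, of the 31 genes with the standard error of the limma fit, over all 6 arrays (black) and with wild-type arrays 2 and 3 averaged as 1 sample (grey). Col5a3 (1.76) and Col8a1 (−2.90) are farthest from 0 in units of their error, and the averaged fit widens the bars of all genes.

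The spread among knockout arrays exceeded the difference between the groups for 28 of the 31 genes; the exceptions were Col5a3, Col8a1 and Col4a5. The median range was 1.27 over the 3 knockout arrays and 0.40 over the wild-type arrays, of which 2 were nearly alike. Knockout array 1 held the highest knockout value for 15 genes. Where a gene had several probes above background, 10 of 13 genes had the same sign of difference on all of them; the exceptions were Col2a1 and, with differences under 0.2, Col1a1 and Col18a1.

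Genes of the same pathway outside the set were read in the same comparison, and none passed limma's adjusted p of 0.05. Those without overlap are named here. Of all features, 11.3% were higher on all knockout arrays and 5.88% were lower. Of 22 matched genes of collagen modification and secretion, 20 entered the comparison, with a median of 0.07. Loxl4, a further lysyl oxidase, was higher on all knockout arrays (difference 0.90). P4ha1, the main catalytic subunit of prolyl 4-hydroxylase, and Mia3, which loads procollagen into transport carriers, were lower on all of them (−0.77 and −0.49). Of 19 other matched chains 10 entered, 8 of them with a difference above 0, and Col9a2, a chain found on cartilage fibres, was higher on all knockout arrays at 1.18. Of 12 collagen receptors, proteases and inhibitors that entered, 6 lay above 0 and 6 below, and Timp2, an inhibitor of matrix metalloproteinases, was higher on all knockout arrays at 0.60. Of 9 TGF-beta response genes, many of which accompany collagen production in fibroblasts, 1 was lower on all knockout arrays, Ccn2, a secreted matrix-associated growth factor, at −2.64. The summed linear signal of the 9, Ccn2 included, was 123.3 to 151.3 in knockout and 177.8 to 255.2 in wild-type cells. The gap between these sums leaned on Ccn2, the brightest of the 9 on wild-type arrays 2 and 3. Ccn2 read 4.22, 3.34 and 3.37 on the knockout arrays, against 5.72, 6.47 and 6.65 on the wild-type arrays. The median of the 9 on each array, with each gene relative to its mean over all arrays, overlapped between the groups. It was 0.26, −0.56 and −0.005 on the knockout arrays and 0.21, −0.12 and 0.14 on the wild-type arrays. The part of these genes in the collagen values was not tested.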

How the data were processed

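Total RNA of 6 fibroblast samples, 3 Rap1 knockout and 3 wild type by their titles, was hybridised to one-colour arrays. Spot intensity was deposited as scanner output of Agilent's Feature Extraction software (10.5.1.1 in the file headers), with a processed signal that the software had background-subtracted and detrended array by array, beside median spot and background signals. A table of log2 values was also deposited; for its steps, the sources used here give only the name limma, in the submitters' processing notes. Each of its columns correlated almost perfectly with 1 array after normexp (offset 50) and quantile normalisation of the scanner signals, and its knockout columns 1, 2 and 3 matched scanner files 2, 3 and 1. Array numbers here are those of the scanner files.

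Control spots (1639 of 45018) and outlier spots (74 to 120 per array) were left out, spots of a probe were averaged, and a probe with no spot left on an array had no value there. No spot was saturated. Values were log2 processed signal minus the 75th percentile of the array. Probes well above background on all arrays of 1 group were kept. Names came from RefSeq accessions (23374 probes; the other 17800 kept the name in the files); mm8 is the build in the file headers, so the only coordinates given are those of RefSeq promoter windows (GRCm38.p6). A gene was represented by its probe of highest mean.

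Groups were compared with limma 3.58.1 in R 4.3.3 (lmFit, eBayes, 2-sided, Benjamini-Hochberg 0.05 over all features, no block), after trying the same call on simulated data. The precision is limited by the number of arrays. Array values are given for genes that did not overlap, the extremes of each role and Col1a1, Col1a2 and Col3a1, and for partner or neighbouring genes chosen after their values were seen; of the other lists, the genes that did not overlap are named. The genes and lists were chosen with earlier results of these data known. Normexp took the median spot signal, since no mean signal was among the columns. By scanner file number, deviations of same-numbered arrays correlated at 0.01, 0.05 and −0.08, so no pairing by number was seen. Since wild-type arrays 2 and 3 were near-alike, these correlations cannot decide whether the samples were paired.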

Additional observations from a re-analysis of the deposited data

How the results depend on the processing

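No collagen gene or enzyme passed under any alternative except slide 2 alone, where 3 did (Col7a1, Col4a1 and Col8a1) among 303 features; that comparison has no wild-type arrays besides the near-alike pair. Counts of genes whose groups did not overlap moved with the scaling and with the arrays used. After normexp with quantile, after quantile normalisation and in the authors' deposited values, 2 were higher (Col5a1, Col5a3). Another 8 were lower there (Col1a2, Col16a1, Col4a1, Col4a2, Col4a5, Col8a1, Plod2 and Serpinh1), against 16.9%, 17.4% and 16.9% of all features in either direction. With median scaling 2 were higher and 2 lower, against 18.0% of all features. The cause was not tested. On slide 2 alone 6 were higher and 12 lower (58.1% of the 31 genes, 57.8% of all features). Without single arrays, where fewer samples separate more easily, 1 to 6 were higher and 2 to 8 lower. These were 32.3% of the 31 genes without knockout array 1, against 25.3% of all features. Without any other single array the share of the genes was below that of all features (9.68% to 29.0% against 18.8% to 45.7%). Col5a3, Col8a1 and Col4a5 did not overlap under any of the 18 alternatives with more than 1 array a group. Col5a3 ranged from 1.54 to 1.92, Col8a1 from −3.36 to −2.31 and Col4a5 from −2.12 to −0.55, and their limma adjusted p from 0.0927 to 0.748, 0.0471 to 0.945 and 0.255 to 0.945. The median of the 31 genes was −0.00060 on slide 1 alone, −0.04 with the mean of a gene's probes, −0.15 with median scaling and −0.26 to 0.059 without single arrays, and 11 of the 31 genes changed sign on slide 1 alone, against at most 6 under any other alternative.

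Over all features 2 passed as reported, 0 over probes above background on all 6 arrays (which leaves out Terf2ip and Col15a1; 1778 at an unadjusted p under 0.05), 4 with the mean of a gene's probes, 0 with the slide as a block (3482 unadjusted), 0 with the replicate block (2353 unadjusted), 0 after averaging wild-type arrays 2 and 3 (690 unadjusted) and 0 to 64 without single arrays. Terf2ip, at −6.63, missed the threshold with the slide as a block and the replicate block (limma adjusted p = 0.0625 and 0.177), and did so after averaging those wild-type arrays (−6.62, 0.0651). Without single arrays it was −6.85 to −6.27, and missed it without knockout array 1 or 3 or wild-type array 2 or 3. The replicate block changed no call of the 31 genes. Signal near background limits Col15a1 and Col14a1.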
